A study of Homo sapiens with 6 samples.

Results

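The human nuclear genome encodes the protein subunits of the mitochondrial ribosome. Most carry the names MRPL, for the large subunit, or MRPS, for the small subunit, with exceptions given below. All protein-coding rows of the deposited gene table whose symbol was MRPL or MRPS followed by a number and at most 1 letter were taken. That gave 78 of 58302 rows, 49 named for the large and 29 for the small subunit, and all 78 passed the filter on low counts. RNA was sequenced from Hs766T, an established human pancreatic tumour cell line, in 2 groups of 3 libraries. One group overexpressed DDX18, a DEAD-box RNA helicase (genotype label ex-DDX18). The other was a control that the labels call plvx and whose genotype label is WT; both groups are otherwise described alike. The titles spell the line HS7666T. The series says that sequencing was repeated 3 times per group and no label tells whether a library had a culture of its own. The p-values therefore reflect the spread among these libraries alone, and that spread may be technical.

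Mitochondrial ribosomes translate the few messenger RNAs of the mitochondrial genome, which encode core subunits of the respiratory chain and of ATP synthase. Their ribosomal RNAs are made inside the organelle, whereas every protein subunit is made in the cytosol from nuclear genes and imported. Decoding takes place on the small subunit and peptide bond formation on the large one, and each subunit is built with the help of dedicated helicases, GTPases and methyltransferases.

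Short sequences recur in the promoters of some of these genes. RefSeq windows on GRCh38.p14, from 250 bases before to 50 after the first listed start, were matched to 69 of the 78 genes by symbol. The letters CCGGAAG, the core bound by ETS-family factors such as GABPA, were present on either strand in 29 of 69 (42%), against 2226 of 15774 windows of other genes (14.1%). Those other genes are protein-coding genes whether expressed here or not, whereas all 78 members passed the filter on low counts. Shares among expressed genes alone were not taken. AAGATGGC, the core of the YY1 motif, was present in 20 of 69 (29%), against 599 of 15774 (3.8%). Either was found in 41 members (59.4%, against 17.1% of other genes), both in 8 (11.6%, against 0.856%) and neither in 28. Shown here are 4 of those 8, chosen to include members of both subunits, from 120 bases before to 30 after the start, with both sets of letters, on either strand, in capitals. MRPL20 lies at chr1:1407264-1407413 (minus strand), MRPS10 at chr6:42217832-42217981 (minus strand), MRPS18A at chr6:43687762-43687911 (minus strand) and MRPL52 at chr14:22829767-22829916 (plus strand).
MRPL20: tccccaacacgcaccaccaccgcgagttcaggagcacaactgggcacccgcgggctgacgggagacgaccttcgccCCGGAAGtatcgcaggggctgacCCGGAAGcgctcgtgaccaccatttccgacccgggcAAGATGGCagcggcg
MRPS10: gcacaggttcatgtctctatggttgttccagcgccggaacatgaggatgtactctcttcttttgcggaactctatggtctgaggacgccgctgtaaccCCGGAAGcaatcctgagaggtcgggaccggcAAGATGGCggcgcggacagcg
MRPS18A: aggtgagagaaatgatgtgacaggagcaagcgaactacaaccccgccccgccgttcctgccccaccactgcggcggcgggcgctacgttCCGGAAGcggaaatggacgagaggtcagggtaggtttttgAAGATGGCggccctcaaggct
MRPL52: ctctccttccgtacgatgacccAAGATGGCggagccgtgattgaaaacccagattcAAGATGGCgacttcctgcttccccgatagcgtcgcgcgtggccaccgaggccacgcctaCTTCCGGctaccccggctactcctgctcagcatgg

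The next 3 windows belong to the members with the 3 lowest log2 fold changes between DDX18 and plvx libraries, and none held either set of letters. MRPL34 lies at chr19:17292453-17292602 (plus strand), MRPL49 at chr11:65122063-65122212 (plus strand) and MRPS14 at chr1:175023396-175023545 (minus strand). RefSeq listed 4 starts for MRPL34 and 2 for MRPL49, and only the first is shown.
MRPL34: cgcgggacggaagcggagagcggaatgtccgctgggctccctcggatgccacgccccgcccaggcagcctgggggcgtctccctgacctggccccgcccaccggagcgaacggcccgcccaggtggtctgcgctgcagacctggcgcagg
MRPL49: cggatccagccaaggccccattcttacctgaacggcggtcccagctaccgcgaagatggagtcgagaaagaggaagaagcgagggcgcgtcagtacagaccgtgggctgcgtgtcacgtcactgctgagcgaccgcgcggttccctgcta
MRPS14: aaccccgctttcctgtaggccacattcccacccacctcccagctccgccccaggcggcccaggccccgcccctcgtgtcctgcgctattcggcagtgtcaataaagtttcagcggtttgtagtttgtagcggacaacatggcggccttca

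The shares were close in the large and small subunits. CCGGAAG was present in 17 of 42 large-subunit windows (40.5%) and 12 of 27 small-subunit windows (44.4%), and AAGATGGC in 12 (28.6%) and 8 (29.6%). In 15 of the 20 windows with AAGATGGC it was found only in the part that reaches past the start, as in MRPL20, MRPS10 and MRPS18A, while MRPL52 carries it upstream. In 16 of the 20 it was on the strand of the transcript, as was CCGGAAG in 16 of its 29. AAGATGGC contains ATG, and matches at a start of translation were not told apart from the others. GCATGCGC, the core of the NRF1 motif, was present in 6 member windows (8.7%, against 4.24% of the others). GGGCGG, bound by SP1, was present in 42 (60.9%, against 58.5%), and CACGTG, the E-box bound by MYC and USF factors, in 6 (8.7%, against 8.88%). TATAAA was present in 2, MRPL54 and MRPS15 (2.9%, against 9.66%). CCGGAAG and AAGATGGC can share the letters AAG, and matches of the 2 overlapped in 0 member windows; matches of any 2 of the 6 motifs overlapped in 1. These are matches of letters and not measured binding sites. The median log2 fold change (DDX18 over plvx) was 0.02 for the 29 members with CCGGAAG and 0.00 for the 40 without it, and 0.00 for the 20 with AAGATGGC and 0.01 for the 49 without it.

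**Figure D1:**
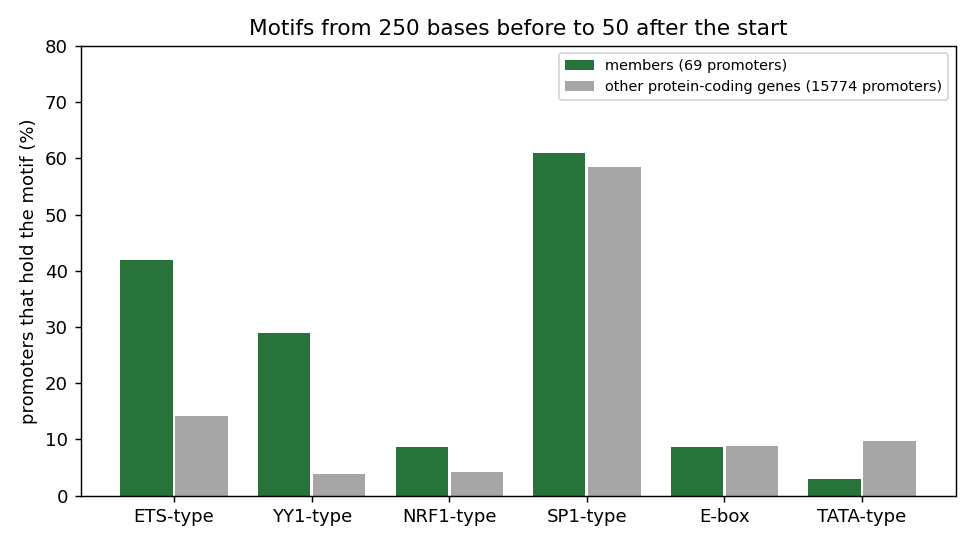
Share of promoter windows (percent, from 250 bases before to 50 after the first listed start) that hold each motif on either strand, for 69 mitochondrial ribosomal protein genes and for 15774 other genes. The other genes were not filtered for expression. The ETS-type letters stand at 42% against 14.1% and the YY1-type letters at 29% against 3.8%.

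Library totals lay between 15911875 and 16207995 counts, of which the 78 members held between 93904 and 102204. Their share was 0.591, 0.638 and 0.62% in DDX18 libraries 1, 2 and 3, against 0.638, 0.61 and 0.58% in plvx libraries 1, 2 and 3. DDX18 itself was 187.2, 197.4 and 176.9 CPM (counts scaled to a common library size) in the DDX18 libraries, against 89.4, 82.4 and 98.3 CPM in the plvx libraries. That is 2.08-fold, with an edgeR adjusted p of 0.00982, which became 0.0544 without DDX18 library 2 and 0.0643 without plvx library 2. The epithelial keratins KRT7 and KRT8 were abundant (607 and 2060 CPM in DDX18 libraries, 602 and 1990 CPM in plvx libraries). KRT18 averaged 856 ± 53.1 CPM in DDX18 libraries and 1050 ± 207 CPM in plvx libraries (SD, n = 3 each). MUC1 averaged 51.1 ± 5.29 and 57.5 ± 4.15 CPM, and EPCAM 5.39 ± 1.08 and 7.05 ± 1 CPM. Of the 6 epithelial markers tested, edgeR, DESeq2 and limma-voom each called 0 (0.0528, 0.300 and 0.0528% of all genes). An unadjusted edgeR p under 0.05 was reached by 0 (5.69% of all genes). The groups did not overlap in 1 of the 6 (16.7%, against 11.5%), which was lower in DDX18 libraries. The ductal keratin KRT19 had 0 to 4 counts per library and the adhesion gene CDH1 averaged 2.23 CPM in DDX18 libraries and 2.06 CPM in plvx libraries. All 5 acinar markers had no count, and the 4 endocrine markers summed to 0 or 1 count in each library. Fibroblast markers summed to 986 to 1147 counts in DDX18 libraries, against 1226 to 1257 in plvx libraries, nearly all from COL1A1 and DCN. COL1A1 averaged 55.1 ± 3.17 CPM in DDX18 libraries, against 66.8 ± 4.39 CPM in plvx libraries. Its log2 fold change was -0.28 (edgeR p 0.0128 unadjusted, 0.814 adjusted), and that of DCN was 0.08. Thus 1 of the 2 tested had an unadjusted edgeR p under 0.05, against 5.69% of all genes. Immune markers summed to 77 to 103 counts, against 66 to 95, and endothelial markers to 83 to 95, against 69 to 121. The epithelial list summed to 53816 to 61398 counts, against 58908 to 59736. Their part in the results was not tested.

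The members differed widely in level. Divided by the length of the principal GENCODE 29 transcript, the mean over 6 libraries had a median of 44.6 CPM per kb in the large subunit and 37.8 in the small subunit. MRPL12 stood highest of the large subunit at 303 CPM per kb. It forms the flexible stalk that recruits translation factors, and it also binds the mitochondrial RNA polymerase. MRPL37, named after its value was seen, followed at 204 CPM per kb, and MRPL41 and MRPL14, which were high by FPKM, had 97.7 and 97.3. MRPS24 (263), MRPS34 (258) and MRPS18B (126) were high among the small-subunit names, and MRPS26 had 54.4 CPM per kb. Lowest in the large subunit were MRPL42 (1.77, over a principal transcript of 15582 bases) and MRPL1 (3.51), and in the small subunit MRPS33 (2.92, over 4241 bases) and MRPS31 (7.42). Without division by length, MRPL42 and MRPS33 averaged 27.6 and 12.2 CPM in DDX18 libraries and 27.6 and 12.6 CPM in plvx libraries. MRPL1 was low on both scales, at 4.72 ± 0.648 CPM in DDX18 libraries and 5.73 ± 1.02 CPM in plvx libraries (SD, n = 3 each).

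**Figure D2:**
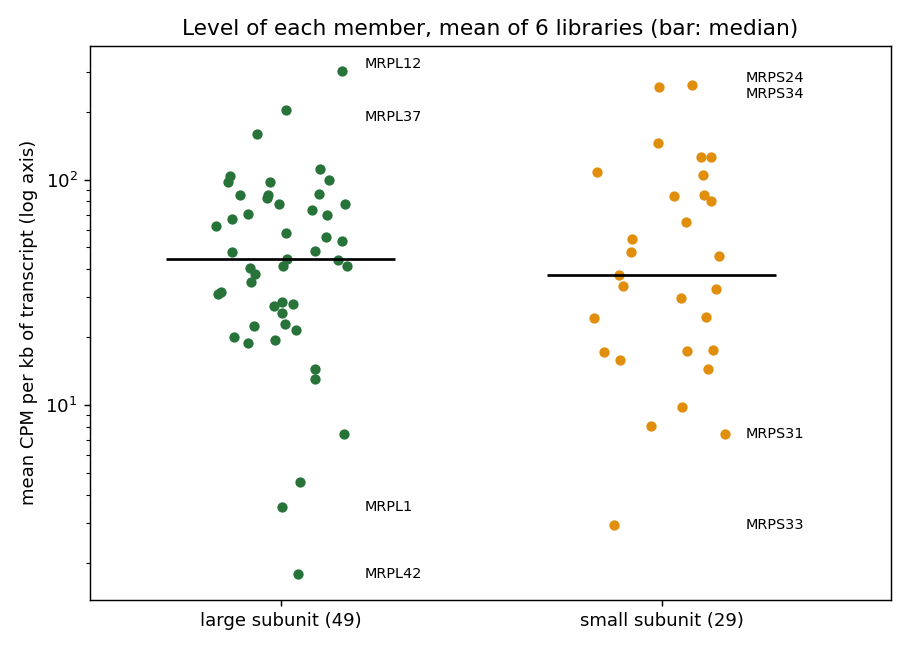
Mean level of each member over the 6 libraries in CPM per kb of principal transcript (log axis), for 49 large-subunit and 29 small-subunit names; each point is a gene and each bar the median of its subunit (44.6 and 37.8). The points span from 1.77 (MRPL42) to 303 (MRPL12) in the large subunit and from 2.92 (MRPS33) to 263 (MRPS24) in the small subunit.

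Names numbered up to 36 in the large and up to 21 in the small subunit follow the bacterial ribosome, and higher numbers mark proteins first described in mitochondria. Large-subunit members with bacterial numbers (28) had a median of 60.2 CPM per kb, against 31 for the other 21. Small-subunit members showed 56.3 (16 genes), against 29.9 (13 genes). Their median log2 fold changes were 0.00 and 0.03 in the large subunit and -0.01 and 0.03 in the small subunit.

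None of the 78 members passed an adjusted p of 0.05 by edgeR's quasi-likelihood test (0.0528% of the 15144 genes tested did) or by limma-voom (0.0528%). DESeq2 passed 1, MRPL34 (0.300% of 14976 genes). An unadjusted edgeR p under 0.05 was reached by 5 members, 6.41% of them, against 5.69% of all genes. MRPL58 was the 1 higher in DDX18 libraries (2.50% of all genes were), and MRPL34, MRPL49, MRPL3 and MRPS14 were the 4 lower (3.19%). In bulk RNA, less RNA per cell and fewer cells of a type cannot be told apart. The log2 fold change was positive in 42 members and negative in 36, with a median of 0.005 and quartiles of -0.039 and 0.067. Over all genes the median was -0.001. It lay within 0.1 of 0 in 56 members (71.8%), against 46.6% of all genes and 54.9% of the 10453 genes with mean CPM in the members' range. The lowest value was -1.24 and the highest 0.47.

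The large subunit had a median log2 fold change of 0.004 (26 positive, 23 negative) and the small subunit 0.006 (16 positive, 13 negative). Of the 5 members with an unadjusted p under 0.05, 4 were in the large subunit and 1 in the small. MRPS18A and MRPS30 sit in the large subunit of the human particle despite their names, and MRPS36 is a subunit of the ketoglutarate dehydrogenase complex. Regrouped so, the medians were 0.004 for 51 large and 0.009 for 26 small members. The groups overlapped in all 3 MRPS18 paralogs. MRPS18A stood at 82.3, 89 and 86.5 CPM in DDX18 libraries, against 93.6, 84.9 and 77.3 CPM in plvx libraries. MRPS18B had 197.4, 186.1 and 190.8 CPM, against 194.5, 203 and 190.9 CPM. MRPS18C had 28.5, 29.6 and 27.8 CPM, against 29.3, 28.3 and 28.8 CPM. The log2 fold changes were 0.01 ± 0.09, -0.04 ± 0.06 and -0.01 ± 0.08 (SE). MRPS30 was 156.8, 138.4 and 135.6 CPM in DDX18 libraries, against 136.6, 140.5 and 152.5 CPM in plvx libraries.

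**Figure D3:**
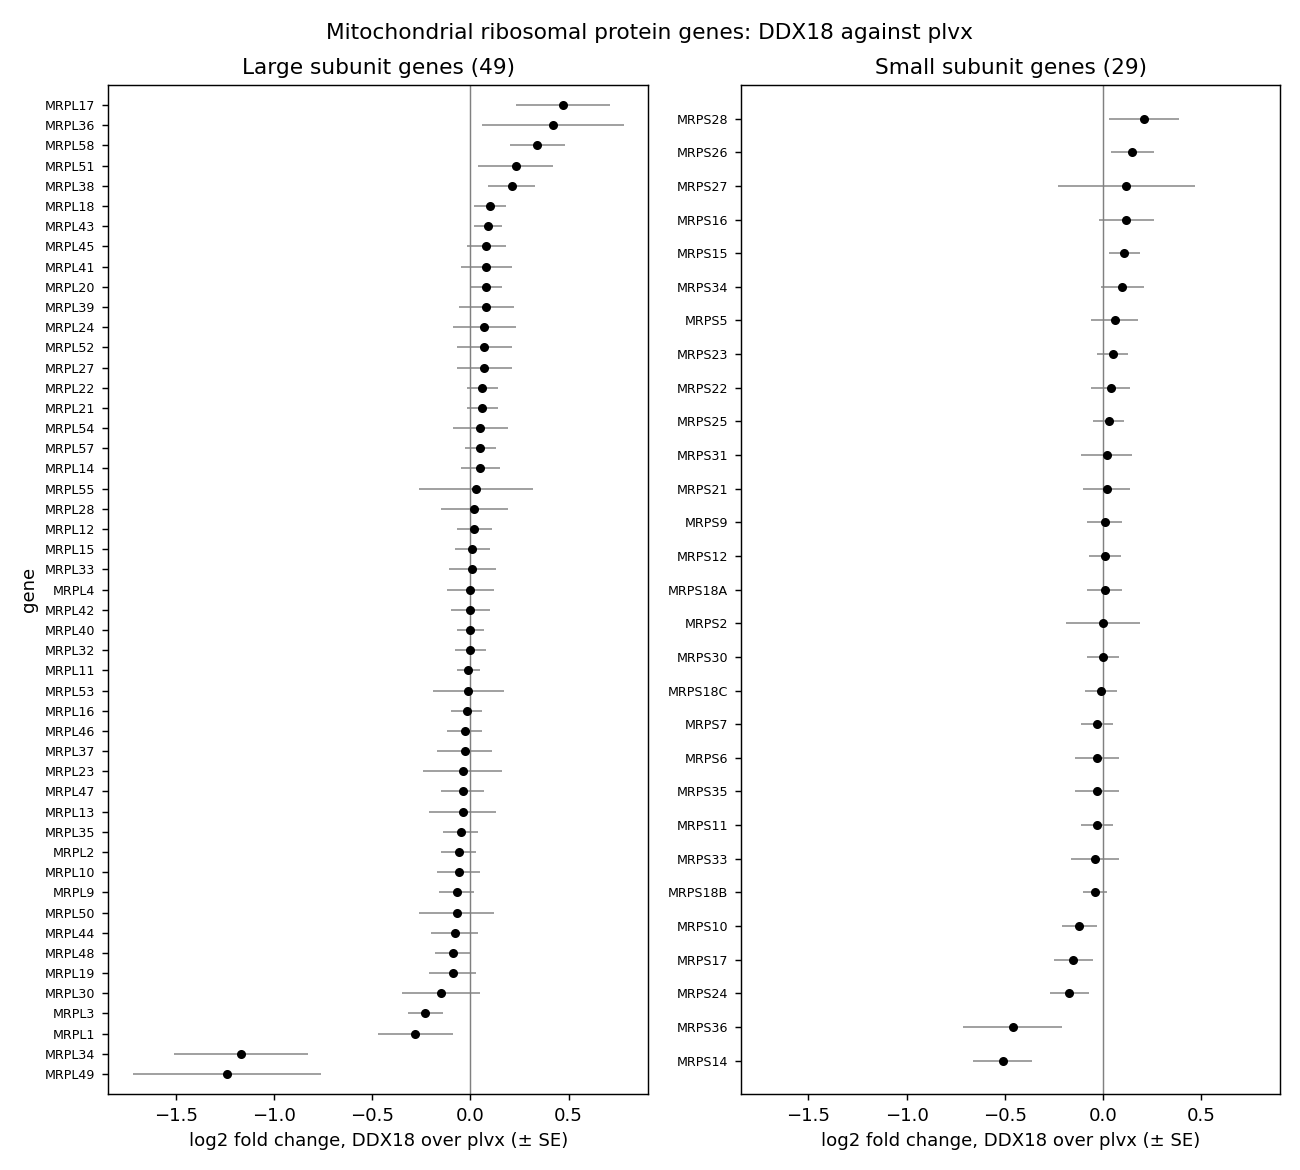
Log2 fold change (DDX18 over plvx) with its standard error for each member, by subunit; the bars are edgeR standard errors and n is 3 libraries per group. Most members lie within 0.1 of 0, MRPL49 (-1.24) and MRPL34 (-1.17) stand lowest and MRPL17 (0.47) highest.

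MRPL34, a small protein of bacterial descent in the large subunit (chr19:17292609-17306843, GRCh38, plus strand), was 20.8, 26 and 27.1 CPM in DDX18 libraries, against 26.9, 77.2 and 62.1 CPM in plvx libraries. The groups overlap, since plvx library 1 lies inside the DDX18 range, and the other plvx libraries stand far above it. Its log2 fold change was -1.17 ± 0.34 (SE; 95% interval -1.96 to -0.38), with an edgeR adjusted p of 0.8 and a DESeq2 adjusted p of 0.0486. Without plvx library 1 it was -1.50, with an edgeR adjusted p of 0.0389. It was -0.854 without plvx library 2 and -1.086 without plvx library 3 (edgeR adjusted p 0.986 and 0.865). With a DDX18 library left out it lay between -1.242 and -1.069 (edgeR adjusted p 0.882 to 0.999). ABHD8, whose exons overlap it, had 402, 392 and 439 counts in DDX18 libraries and 368, 393 and 339 in plvx libraries, and whether counting used strand is not given in the sources used here.

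MRPL49 (chr11:65122183-65127371, plus strand), a large-subunit protein without a bacterial counterpart, was 38.2, 39 and 36.8 CPM in DDX18 libraries, against 171.2, 39.6 and 59.5 CPM in plvx libraries. The groups do not overlap, but plvx library 2 lies just above the highest DDX18 library, and plvx library 1 stands far above every other. The log2 fold change of -1.24 ± 0.48 had an edgeR adjusted p of 0.853. It was -0.38 without plvx library 1, -1.601 without plvx library 2 and -1.472 without plvx library 3. With a DDX18 library left out it lay between -1.264 and -1.222. FAU, whose exons overlap it, had 5592, 5501 and 4827 counts in DDX18 libraries and 5780, 5411 and 5293 in plvx libraries, and SYVN1 had 679, 754 and 949, against 696, 922 and 798. MRPS14 (chr1:175010789-175023425, minus strand), a protein of the head of the small subunit, was 28.9, 27.1 and 27.6 CPM in DDX18 libraries, against 39.8, 31 and 47.9 CPM in plvx libraries. These groups do not overlap either, and the log2 fold change was -0.51 ± 0.15 (edgeR adjusted p 0.811). With 1 library left out it lay between -0.653 (without plvx library 2) and -0.348 (without plvx library 3). CACYBP, whose exons overlap it, had 2033, 1896 and 1534 counts in DDX18 libraries and 2164, 1382 and 2069 in plvx libraries. Non-overlapping groups were thus seen in 2 of 78 members (2.56%), against 11.5% of all genes. Both were lower in DDX18 libraries (5.71% of all genes were), and 0 members were higher without overlap (5.83%).

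MRPL3, which lines the peptidyl transferase centre, was 108.4, 116.6 and 105.2 CPM in DDX18 libraries, against 132.9, 116.3 and 137.8 CPM in plvx libraries (log2 fold change -0.23 ± 0.09, edgeR adjusted p 0.849). MRPL58, a peptidyl-tRNA hydrolase that releases stalled chains and is built into the large subunit, was 38.8, 49.2 and 55.4 CPM in DDX18 libraries, against 41.7, 35.4 and 35.8 CPM in plvx libraries (0.34 ± 0.14, edgeR adjusted p 0.86). The groups overlap in both genes. The other small-subunit genes with the smallest p were MRPS17 (-0.15 ± 0.1), MRPS24 (-0.17 ± 0.1), MRPS15 (0.11 ± 0.08) and MRPS36 (-0.46 ± 0.25), with edgeR adjusted p between 0.862 and 0.901. Single libraries moved these values by over 1.5 times. Without DDX18 library 1, MRPS17 was at -0.246 and MRPS24 at -0.083, and without plvx library 1 MRPS24 was at -0.100 and MRPS36 at -0.710. MRPS36 was at -0.277 without plvx library 2, and MRPS15 at 0.052 without plvx library 3. The 0.34 of MRPL58 was 0.226 without DDX18 library 3.

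A few members spread widely over the libraries. The highest library exceeded the lowest at least 2-fold in 6 members (7.69%), against 19.1% of all genes and 7.11% of genes in the members' CPM range. MRPL49 (4.66-fold), MRPL34 (3.71-fold), MRPL36 (3.37-fold), MRPS27 (2.55-fold), MRPL17 (2.11-fold) and MRPS36 (2.01-fold) were the 6, and MRPL55 (1.97-fold) lay just under. In MRPL49, MRPL36, MRPS27 and MRPL17 a single library stood apart, and not always one of the same group. MRPL17, near the exit tunnel, had 76.8, 81 and 148.7 CPM in DDX18 libraries, against 77.3, 72.9 and 70.3 CPM in plvx libraries. Its log2 fold change of 0.47 ± 0.24 became 0.10 without DDX18 library 3. MRPL36, one of the smallest proteins of the large subunit, had 48.6, 61.2 and 62.4 CPM, against 55.7, 54.2 and 18.5 CPM. Its 0.42 ± 0.36 became 0.06 without plvx library 3 and 0.659 without plvx library 1. MRPS27, a pentatricopeptide repeat protein, had 161.7, 68 and 63.5 CPM in DDX18 libraries, against 103.2, 70.3 and 96.5 CPM in plvx libraries; its log2 fold change of 0.12 ± 0.35 was -0.46 without DDX18 library 1 and lay between -0.031 and 0.352 when another library was left out. MRPL55 was high in library 1 of both groups, at 46.7, 30.3 and 27.9 CPM in DDX18 libraries and 49.8, 27.7 and 25.3 CPM in plvx libraries. MRPS36 had 8.7, 9.7 and 7.9 CPM, against 7.4, 14.9 and 13.8 CPM.

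**Figure D4:**
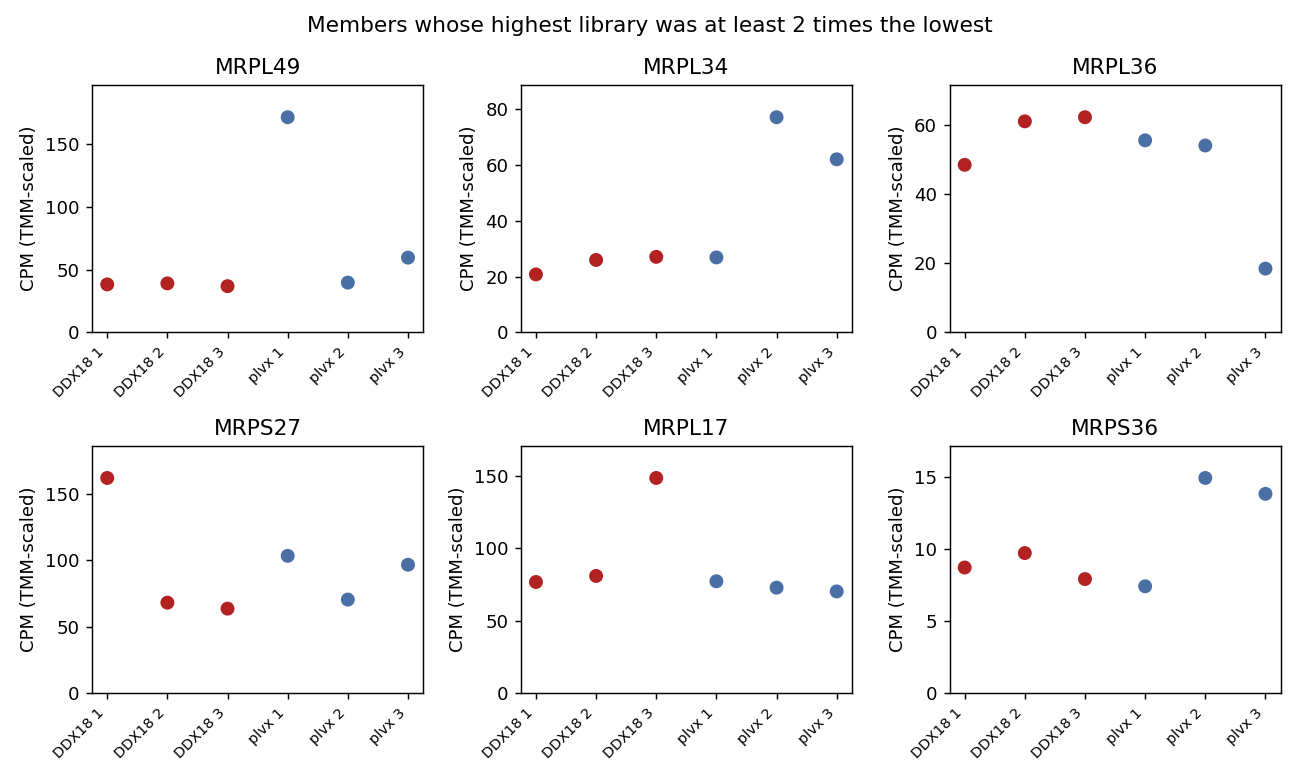
CPM of the members with the widest range over the libraries, DDX18 libraries left and plvx libraries right; each point is 1 library. In MRPL49, MRPL36, MRPS27 and MRPL17 a single library lies far from the rest of its group.

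The spread over libraries was close to that of genes within the members' range of mean CPM. That set holds 10453 of the 15144 genes tested and is not matched to the members in level. The median coefficient of variation (CV) over 6 libraries was 9.47% for members and 9.97% for genes of the same CPM range, with 42 of 78 members under 10%. Chosen after values were seen, MRPL32 (CV 0.896%), MRPL11 (2.24%), MRPS18C (2.37%), MRPL40 (2.5%) and MRPS18B (3.06%) were the steadiest. MRPL32, whose processing by a mitochondrial protease precedes assembly, had 37, 36.4 and 36.1 CPM in DDX18 libraries, against 36.5, 36.7 and 36.1 CPM in plvx libraries. MRPL12 had 288.4, 335.2 and 316.1 CPM in DDX18 libraries, against 338.3, 308.1 and 280.6 CPM in plvx libraries, for a log2 fold change of 0.02 (95% interval -0.19 to 0.23). The stalk proteins MRPL10 and MRPL11 averaged 90.6 ± 1.32 and 107.2 ± 1.93 CPM (SD) in DDX18 libraries, against 94.2 ± 12.9 and 108.3 ± 3.16 CPM in plvx libraries. At the exit tunnel MRPL22 averaged 73 ± 5.99 CPM, against 70.1 ± 1.88 CPM, and MRPL45, which anchors the particle to the inner membrane, 76.9 ± 5.5 CPM, against 73 ± 6.56 CPM. Among proteins of the catalytic region, MRPL2 averaged 90.1 ± 8 CPM, against 93.9 ± 5.14 CPM, and MRPL4, which reaches into the exit tunnel, 113.8 ± 18.8 CPM, against 113.5 ± 8.89 CPM. MRPL24, near the exit tunnel, had 73.9, 108.5 and 100.4 CPM in DDX18 libraries, against 101.7, 92.3 and 75.6 CPM in plvx libraries, so the groups overlapped with 1 low library in each. In the decoding centre MRPS12 averaged 154.2 ± 9.09 CPM, against 153.6 ± 8.57 CPM. MRPS2 averaged 238.6 ± 52.9 CPM, against 239.4 ± 43.6 CPM, and was low in library 3 of both groups. MRPS5 averaged 142.9 ± 17.4 CPM, against 137.6 ± 17.6 CPM, and MRPS7, an early-binding protein of the head, 90 ± 3.63 CPM, against 91.6 ± 5.58 CPM. These examples were also chosen after values were seen.

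In each library the medians of both subunits lay on the same side of 0. Relative to the mean of the 6 libraries, the median log2 level of the large subunit was -0.105, 0.072 and 0.023 in DDX18 libraries and 0.046, -0.056 and -0.043 in plvx libraries. The small subunit stood at -0.032, 0.021 and 0.002 and at 0.029, -0.021 and -0.021. The large subunit stood further from 0 in each library. In DDX18 library 3 the small subunit, at 0.002, lay no further from 0 than all genes did (0.003). Large minus small differed by 0.013 between DDX18 and plvx libraries (DDX18 minus plvx), with an SD of 0.049 among libraries of a group. With 1 library left out it lay between -0.016 (without DDX18 library 2) and 0.046 (without DDX18 library 1). Base composition of the transcripts moved with the libraries too. Members with GC content above the members' median of 49.6% stood at -0.105, 0.088 and 0.040 in DDX18 libraries and 0.098, -0.031 and -0.093 in plvx libraries, and the others at -0.030, 0.030 and -0.048 and at 0.016, -0.059 and 0.091. Genes that are no members showed -0.003, 0.008 and 0.033 and then 0.055, -0.005 and -0.071 above that GC content. In DDX18 library 3 and plvx libraries 1, 2 and 3 the GC-rich other genes lay on the same side of 0 as the GC-rich members and within 0.05 of them. In DDX18 library 1 those other genes stood at -0.003, against -0.105 for the GC-rich members. In DDX18 library 3 and plvx library 3 each subunit held both signs. In plvx library 3 the large subunit stood at -0.091 above that GC content and 0.097 below it, and the small subunit at -0.143 and 0.087. In DDX18 library 3 the large subunit stood at 0.056 above it and -0.046 below it, and the small subunit at 0.018 and -0.051. The part of base composition in the results was not tested.

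**Figure D5:**
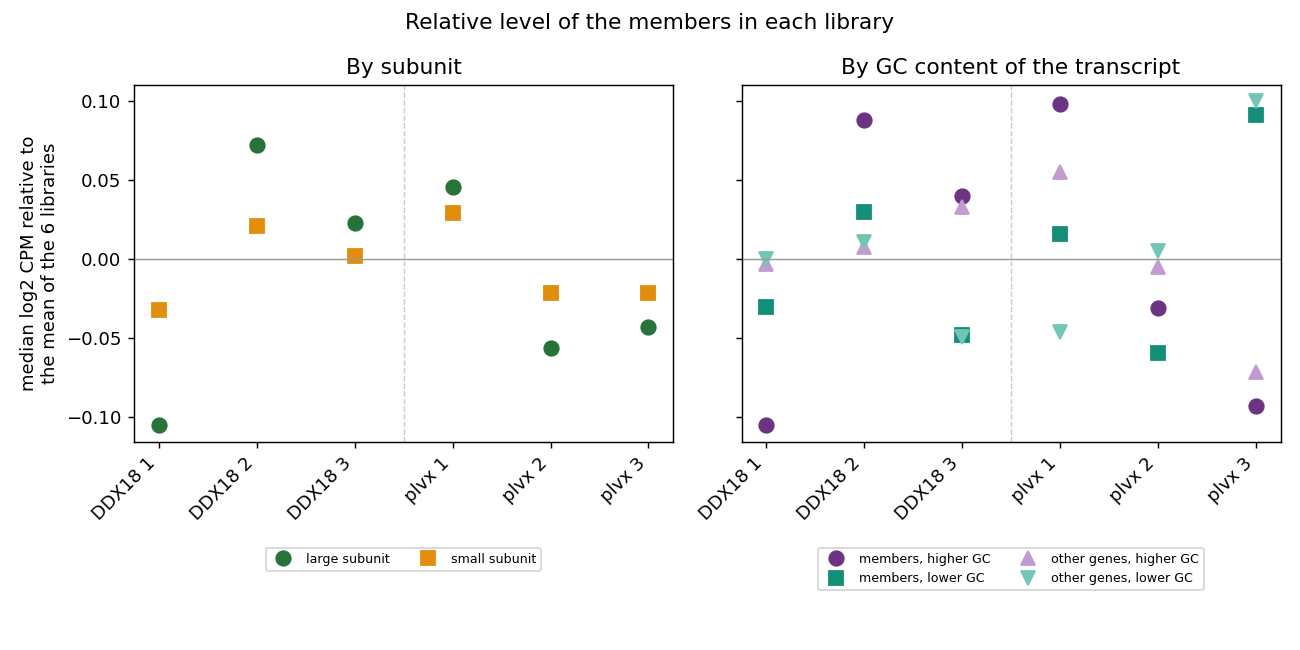
Median log2 CPM relative to the mean of the 6 libraries, by library, for the 49 large and 29 small members (left) and for members and other genes above and below 49.6% GC (right). The large subunit lies at -0.105 in DDX18 library 1 and at 0.072 in DDX18 library 2, with the small subunit nearer 0 in each library.

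In the genome the members lie on 21 chromosomes, with 8 each on chromosomes 1, 2 and 17. A protein-coding gene starts head to head within 1000 bases of 17 members (21.8%), against 9.74% of 12397 other tested protein-coding genes. The pairs described here were chosen after values were seen. MRPL46 and MRPS11, on opposite strands of chromosome 15, start 34 bases apart. MRPL46 stood at 30.4, 31.8 and 31.4 CPM in DDX18 libraries, against 31.9, 34.3 and 29.6 CPM in plvx libraries. MRPS11 stood at 61, 63.4 and 63.2 CPM, against 67.6, 64.1 and 59.6 CPM. Each had a log2 fold change of -0.03. MRPL36 starts 34 bases from NDUFS6, a complex I subunit with 238.4, 385.2 and 317.4 CPM in DDX18 libraries and 354.2, 303.3 and 245.8 CPM in plvx libraries. MRPL18 stands head to head with the chaperonin gene TCP1. MRPL18 averaged 63.3 ± 2.24 CPM in DDX18 libraries, against 59 ± 2.76 CPM in plvx libraries, and TCP1 had a log2 fold change of 0.13 ± 0.10 (edgeR adjusted p 0.917). MRPL47 stands so with NDUFB5, another complex I subunit, whose log2 fold change was -0.10; that of MRPL47 was -0.04. Exons of 41 members (52.6%) overlap another gene, and this share was not taken for genes that are no members. Some of the overlapping genes had few counts, such as RN7SL737P, which overlaps MRPL42, with 1 count in each library. Members' names are carried by 104 pseudogene rows, and these pseudogenes summed to at most 232 counts per library.

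Lists of other mitochondrial genes gave no calls by edgeR, with 0 passing among 5 mitoribosomal proteins with other names (4 positive, median log2 fold change 0.072), 29 assembly factors (15 positive, 0.011), 18 translation factors (6 positive, -0.052), 6 transcription factors (4 positive, 0.058) and 10 markers of mitochondrial content (5 positive, -0.002). DESeq2 and limma-voom also called 0 of these. Over all genes the shares called were 0.0528% by edgeR and limma-voom and 0.300% by DESeq2. Of the assembly factors, 2 (6.9%) reached an unadjusted edgeR p under 0.05, near the 5.69% of all genes, and 0 did in the other lists. PTCD3 averaged 46.9 ± 3.44 CPM in DDX18 libraries and 54.2 ± 7.16 CPM in plvx libraries. FASTKD2, which binds the large ribosomal RNA, averaged 13.7 ± 0.744 CPM, against 16.7 ± 1.12 CPM (edgeR adjusted p 0.853), and DDX28, a DEAD-box helicase of large-subunit assembly, 49 ± 2.05 CPM, against 46 ± 1.64 CPM (0.925). Among translation factors MTRFR averaged 25.1 ± 2.32 CPM, against 21.4 ± 3.16 CPM. Among transcription factors TFAM averaged 64.3 ± 5.42 CPM, against 68.8 ± 2.61 CPM. CS, the citrate synthase used as a content marker, averaged 235 ± 189 CPM, against 355 ± 185 CPM.

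The ribosomal RNAs of the particle, MT-RNR1 and MT-RNR2, averaged 870 ± 143 and 3940 ± 577 CPM in DDX18 libraries, against 1160 ± 232 and 4200 ± 280 CPM in plvx libraries. Their log2 fold changes were -0.41 and -0.09, with edgeR adjusted p of 0.86 and 0.957. Log2 fold changes were negative in 13 of 13 genes for mitochondrially encoded proteins (median -0.211), while 49.8% of all genes had positive ones. By edgeR 0 of them and 0 of the 2 ribosomal RNAs were called (0.0528% of all genes were). DESeq2 (0.300%) and limma-voom (0.0528%) also called 0. An unadjusted edgeR p under 0.05 was reached by 6 of 13 (46.2%) and 1 of 2, against 5.69% of all genes. In 5 of the 13 (38.5%) the DDX18 libraries lay below the plvx libraries without overlap, against 5.71% of all genes. These shares count the 13 genes as if each varied independently of the others, which was not tested. MT-ND6 stood nearest 0, with a log2 fold change of -0.03 ± 0.121 (SE). MT-ATP6 averaged 531 ± 43.6 CPM, against 681 ± 67.6 CPM.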

How the data were processed

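RNA-seq of 6 libraries was analysed from 1 table of raw counts per gene and FPKM, as the authors deposited them. Values are FPKM per the file headers, deposited for each library, and equal the count over a fixed length per gene and the library total in 9997 genes with at least 100 counts (largest relative spread of that length 9.12e-06). They served to choose genes to name and in 2 alternative tests. No aligner, counter or strand setting was found: each is not given in the sources used here. Mouse builds, GRCm38 and mm10, stand in the submitters' processing notes, whereas the table holds human identifiers, and 77 of 78 members have the start and end of GENCODE 29 on GRCh38. Per the labels' protocols, libraries were prepared from total RNA with a SMARTER kit for mRNA.

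Counts were filtered by filterByExpr (15144 genes kept), scaled by TMM and tested with edgeR 4.0.16 in R 4.3.3 (quasi-likelihood, no covariate, Benjamini-Hochberg adjustment over all genes tested, threshold 0.05). Standard errors of fold changes are from that fit (log2 scale), and the common coefficient of variation between replicates was 15.9%, which limits precision more than depth at these counts. Within a group, libraries differed by more than counting noise, and each was kept as a separate library. That difference cannot tell separate cultures from separate preparations of the same culture. The scripts were tested on simulated counts. Alternatives were other scalings and filters, DESeq2 1.42.0, limma-voom 3.58.1, limma on log2(FPKM + 1) and log2(FPKM + 0.1), a block for the replicate number and leaving out each library. No per-sample column was left unmapped.

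Members, lists and tests were chosen with earlier results of these data known. Named were members past the threshold, in each subunit the 5 with the smallest p and the 3 highest and 3 lowest by FPKM, the 5 with the largest coefficient of variation, 7 fixed genes, DDX18, DDX28, and of each list the gene with the smallest p. Every other gene named was chosen after values were seen.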

Additional observations from a re-analysis of the deposited data

How the results depend on the processing

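The count of all genes past the threshold was 8 and became 4 without an expression filter, 45 with DESeq2, 1 with a replicate block and 3 (without plvx replicate 2) to 14 (without plvx replicate 1) when single libraries were left out. The count of mitochondrial ribosomal protein genes was 0 by edgeR, 1 by DESeq2 and 0 to 1 with a library left out; that 1 is MRPL34 in both cases (log2 fold change -1.17 by DESeq2, adjusted p 0.0486, and -1.50 by edgeR without plvx replicate 1, adjusted p 0.0389). For DDX18 the log2 fold change was 1.06 under the replicate block (edgeR adjusted p 0.153) and lay between 0.995 and 1.119 with a library left out, past the threshold except without DDX18 replicate 2 and without plvx replicate 2. Residuals of same-numbered libraries correlated at -0.073, 0.033 and -0.104 over the genes tested, and no pairing is drawn from the numbers. Whether same-numbered libraries share a batch that affects some genes was not tested. Over all settings the median log2 fold change stayed between -0.019 and 0.017 for the large and between -0.015 and 0.019 for the small subunit, also without the members of at least 2-fold range, a setting added after seeing the data. Alternatives were run for 26 single members, those the naming rule chose. Their sign changed in 31 cases in 12 genes, each within 1 SE of 0 in the reported fit, and no larger value of these 26 changed sign. Between replicates, 3 libraries per group limit what can be told, and for MRPL1, with 67 to 108 counts per library, counting noise does as well.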
